A study of Mus musculus with 2 samples.

Results

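Lysosomal genes were compared between mouse spleens remodelled with silica (SiO2) and control spleens given phosphate-buffered saline (PBS). The set held 52 genes for the lysosomal proton pump, the hydrolases inside the organelle, its membrane proteins and 2 transcription factors. They were chosen by symbol, and 51 of them had a named probe among the 16774 named genes measured in all. No probe accession matched Cd68 in the gene table, so it was not analysed here. Each group was 1 array, with RNA from 5 female spleens pooled. The SiO2 pool came from spleens harvested on day 19 after the first injection, and the PBS pool from spleens harvested at the same time. Strain and age were not given in the sources used here. One array per group allows no test, no p-value and no standard deviation between animals, so every difference below describes these 2 pools by its size. The array count limits the precision.

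A lysosome digests material taken up by the cell, and it does so in an acidic lumen. The vacuolar proton pump makes that acid: its V1 sector burns ATP in the cytosol and turns a rotor, which drives protons through the V0 sector in the membrane. Cathepsins then cut proteins, glycosidases trim sugars, and lipases, sphingolipid hydrolases and cholesterol carriers deal with lipids. Tfeb and Mitf are related basic helix-loop-helix factors known to switch on many of these genes by binding short palindromic sites of the E-box type. In the spleen, red pulp macrophages use this machinery to break down aged red cells, and antigen-presenting cells use it to process antigen.

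The pump genes of the set stood higher in the SiO2 pool than its hydrolases did. Differences are log2 signal of SiO2 minus PBS, after dividing by the 75th percentile signal of the array. The 14 pump genes had a median difference of 0.34, and 13 of them lay above 0. The 8 glycosidases had a median of -0.28, and 1 of them lay above 0. Cathepsins and legumain had a median of -0.24 over 12 genes, and the lipid enzymes and carriers -0.36 over 7. The glycosidase and cathepsin medians lay above 0 under 1 alternative scaling, given with the class distances. Over all genes measured the median was 0.03, and 52.3% lay above 0.

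Few single members differed much. At a threshold of 2-fold, 2 of 51 were higher in the SiO2 pool (3.92%), against 6.62% of all genes measured. On the other side 2 of 51 were at least 2-fold lower (3.92%), against 3.69% of all genes. These shares are near or under the background. At 1.5-fold, 7 members were higher (13.7%), against a background of 16.0%, and 5 were lower (9.80%), against 12.3%. The other 39 lay within 1.5-fold. Over all 51 the median was -0.07, and 28 members lay below 0.

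**Figure D1:**
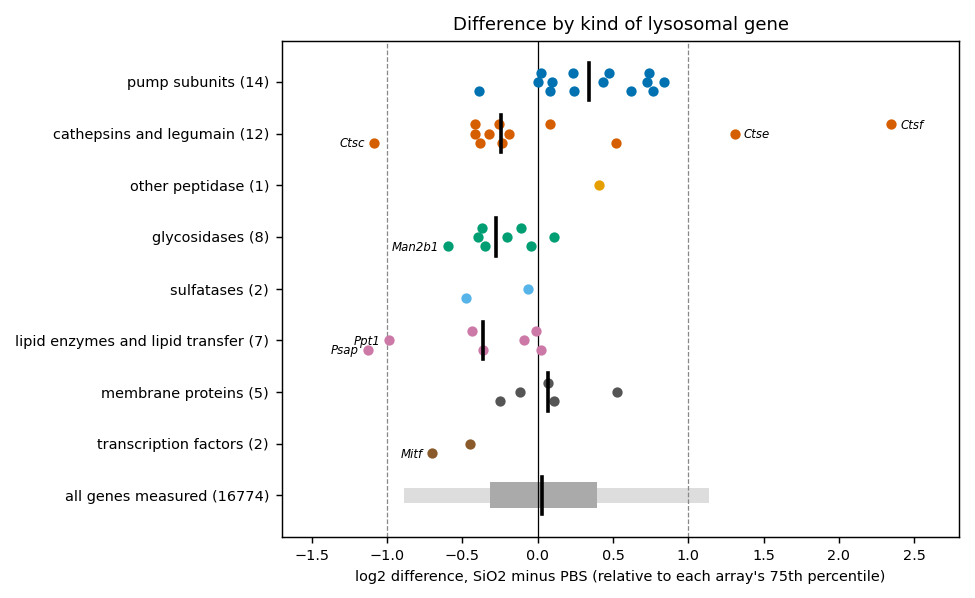
Log2 difference (SiO2 minus PBS, x axis) of each lysosomal gene, grouped by kind, with the number measured in brackets. Points are genes, thick black bars are class medians (classes of over 2 genes), dashed lines mark 2-fold, and the grey bars show the 5th to 95th (-0.88 to 1.14) and 25th to 75th (-0.32 to 0.39) percentiles of all genes measured. Pump subunits lie mostly right of 0 and glycosidases mostly left, while Ctse and Ctsf are the members past 2-fold on the right.

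The technical error of a difference was small beside the largest of these values and large beside the smallest. Probes printed 10 times gave a median standard deviation of 0.06 (log2) for the difference between the arrays. The scanner software's own error estimate came to between 0.20 and 0.21 for the members. One member, Gusb, was printed repeatedly. Its 7 spots free of outlier flags had a median unscaled signal of 717 in the SiO2 pool, against 1178 in the PBS pool, and a difference of -0.21 ± 0.05 (SD over spots). Neither figure covers animals, pooling, labelling or hybridisation.

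Among the pump genes of the set, all 5 V0 subunits were higher, with a median difference of 0.48. Of the V0 isoforms outside the set, Atp6v0d2 was higher and Atp6v0a2 lower, while Tcirg1 was lower by little more than the scanner error (-0.25). Atp6v0a4 and Atp6v0e2 were lower too, but very dim, and were at -0.01 and -0.12 with normexp background correction. Signals are given from here on as a percentage of the array's 75th percentile, for the SiO2 pool and then the PBS pool. Atp6v0d1, the subunit that couples the rotor to the membrane ring, had 171% in SiO2 against 101% in PBS. This 1.70-fold difference is 0.77 in log2. Atp6v0a1, an isoform of the large membrane subunit that carries the proton path, had 599% in SiO2 against 360% in PBS, or 1.67-fold higher. Atp6v0c, the proteolipid of the ring, was at 125% in SiO2 and 89.7% in PBS, a log2 difference of 0.48. The ring's other proteolipid, Atp6v0b, differed by 0.24 and the small subunit Atp6v0e by 0.09. These last 2 values are close to or under the scanner error.

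The 8 V1 subunits of the set had a lower median difference than its V0 subunits, at 0.16, and ranged from -0.39 to 0.73. The size of the V1 median depended on the processing, as given in the last section. Atp6v1e1, part of the peripheral stalks, had 223% in SiO2 against 135% in PBS, or 1.65-fold higher. Atp6v1a, which holds the catalytic sites, had 302% in SiO2 against 197% in PBS, or 1.53-fold higher. A second Atp6v1a probe gave 0.01 on the log2 scale, so this gene's difference rests on 1 of its 2 probes. Its partner in the catalytic ring, Atp6v1b2, was at 65.2% in SiO2 and 48.2% in PBS, a difference of 0.43.

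The remaining V1 subunits showed little. Atp6v1c1, which clamps the sectors together, differed by 0.23, and the stalk subunit Atp6v1g1 by 0.08. Atp6v1d, in the rotor, was at 0.02 and Atp6v1h, a regulator of sector assembly, at 0.005. The rotor subunit Atp6v1f was the only pump gene below 0, with 924% in SiO2 against 1212% in PBS (-0.39). The accessory protein Atp6ap1, which helps to assemble and sort the pump, had the highest value of the 14, with 88.5% in SiO2 against 49.4% in PBS. That was 1.79-fold higher, or 0.84 in log2, while a second probe gave 0.76. No pump gene in the set reached 2-fold. The 5 that reached 1.5-fold (35.7%, against 16.0% of all genes) were Atp6ap1, Atp6v0d1, Atp6v0a1, Atp6v1e1 and Atp6v1a.

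**Figure D2:**
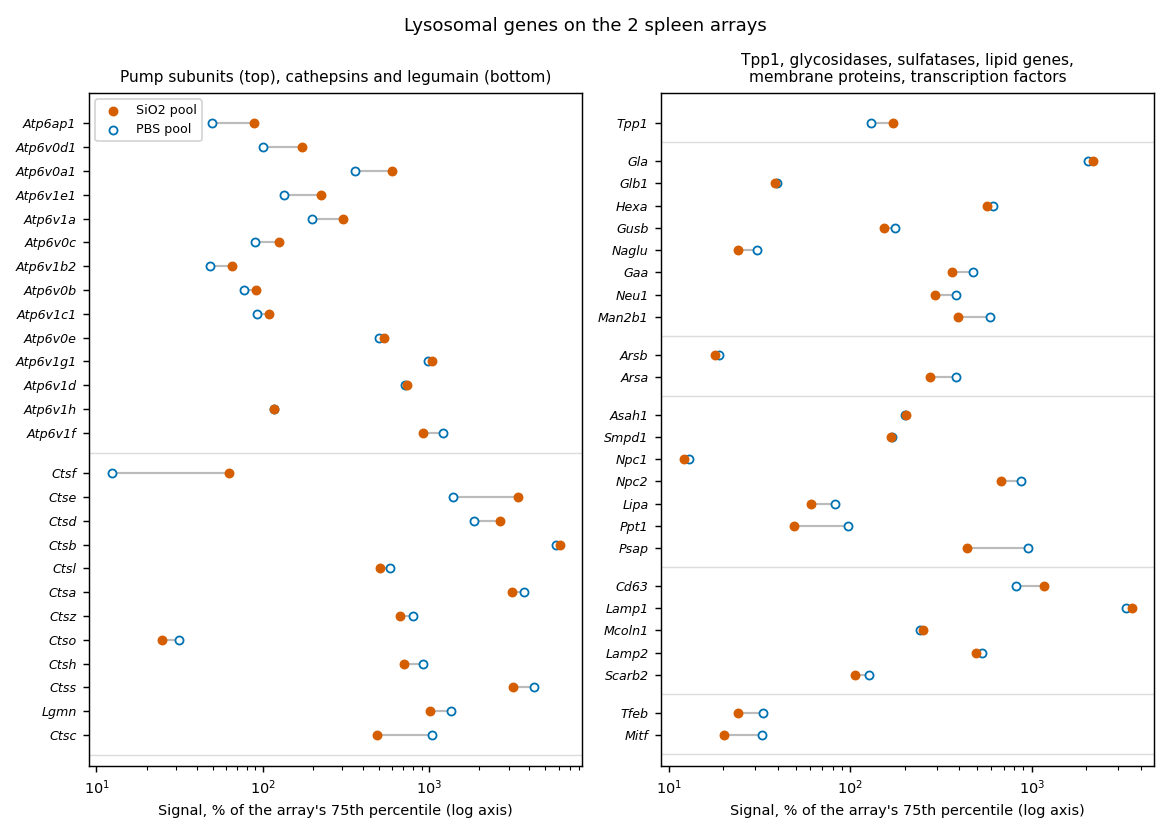
Signal of each lysosomal gene in the SiO2 pool (filled orange) and the PBS pool (open blue) as a percentage of the array's 75th percentile, on a log axis, 1 array per pool. Grey lines join the 2 pools, and genes are ordered by difference within each class. Orange lies right of blue for 13 of 14 pump genes (overlying it in Atp6v1h) and left of it for 7 of 8 glycosidases, and Ctsf has the longest line.

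Cathepsins are the proteases of the lysosome, and they held the 2 highest values of the set. Ctsf, a papain-type cysteine protease, had 62.7% in SiO2 against 12.3% in PBS. It was 5.09-fold higher, the largest difference of the 51. Ctse, an aspartic protease of red cell membranes, stomach and immune cells, had 3423% in SiO2 against 1381% in PBS, or 2.48-fold higher. Ctsd, the main lysosomal aspartic protease, had 2671% in SiO2 against 1860% in PBS, a log2 difference of 0.52. Its second probe gave 0.47. Ctsb, an abundant cysteine protease, was close to even at 0.08.

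The other 8 genes of this class lay below 0. Ctsc, the dipeptidyl peptidase that activates granzymes and neutrophil serine proteases, had 487% in SiO2 against 1035% in PBS, or 2.13-fold lower. Its targets, some of them chosen after their values were seen, lay on both sides of 0. Gzma was at -2.62 and Gzmb at -2.06, and the dimmer granzymes ranged from -0.78 for Gzmc to 1.14 for Gzmg. Elane had 683% in SiO2 against 226% in PBS, Ctsg 468% against 220%, and Prtn3 40.4% against 20.1%. Ctss, which trims the invariant chain of MHC class II molecules, was at 3200% in SiO2 and 4263% in PBS (-0.41). Lgmn, the asparaginyl endopeptidase that matures several cathepsins, was at -0.42, and the aminopeptidase Ctsh at -0.38. Ctso (-0.33), the carboxypeptidase Ctsz (-0.25), Ctsa (-0.23) and Ctsl (-0.19) lay nearer to 0. Ctsa is also the protein that stabilises the enzymes encoded by Glb1 and Neu1. Tpp1, a tripeptidyl peptidase outside the cathepsin family, was at 173% in SiO2 and 131% in PBS (0.41).

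Glycosidases formed the narrowest of the larger classes, from -0.60 to 0.11. Man2b1, the lysosomal alpha-mannosidase, had 391% in SiO2 against 591% in PBS, and was the only one past 1.5-fold, at 1.51-fold lower. The sialidase Neu1 (-0.40), the glycogen-degrading Gaa (-0.37) and Naglu of heparan sulfate breakdown (-0.35) followed. Gusb, the beta-glucuronidase, was at -0.21. Hexa (-0.11), an enzyme of ganglioside breakdown, the beta-galactosidase Glb1 (-0.04) and the alpha-galactosidase Gla (0.11) lay within the scanner error of 0. Both sulfatases were below 0, at -0.48 for Arsa, which acts on sulfatide, and -0.07 for Arsb, which acts on dermatan sulfate. Its second probe gave the same -0.07.

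The lipid class was led by Psap and Ppt1. Psap, the precursor of the saposins that present sphingolipids to their hydrolases, had 438% in SiO2 against 958% in PBS. That was 2.19-fold lower, the lowest value of the set. Ppt1, which removes palmitate from proteins, had 49.2% in SiO2 against 97.5% in PBS, or 1.98-fold lower, just inside the 2-fold threshold. Lipa, the acid lipase for cholesteryl esters and triglycerides, was at 61.1% in SiO2 and 82.6% in PBS (-0.43). Of the partners in cholesterol export, the soluble Npc2 was at -0.36 and the membrane protein Npc1 at -0.09. The acid sphingomyelinase Smpd1 (-0.01) and the acid ceramidase Asah1 (0.02) were even. A second Asah1 probe gave -0.29.

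Membrane proteins differed little, with a median of 0.07 over 5 genes. Cd63, a tetraspanin of late endosomes and lysosomes, was highest, with 1174% in SiO2 against 816% in PBS (0.52). Lamp1 (0.11) and Lamp2 (-0.12), the main glycoproteins of the membrane, were close to even, and so was the cation channel Mcoln1 (0.07). Scarb2, an abundant glycoprotein of the lysosomal membrane, was at -0.25. Both transcription factors were below 0 and dim on the arrays. Mitf had 20.1% in SiO2 against 32.6% in PBS, or 1.63-fold lower, and its second probe gave -1.12. Tfeb had 24.1% in SiO2 against 32.9% in PBS (-0.45).

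A constant shift between the arrays, as in median scaling or the lymphocyte level, moves all classes alike and leaves the distance between them as it is. Both changes of background filter left it the same too, as every measured member was above background on both arrays. Only normexp, quantile normalization, probe averaging and the deposited values could change it. The pump median exceeded that of the glycosidases by 0.62, with a range of 0.51 to 0.65 over the 8 alternatives tried. It exceeded the cathepsin median by 0.58 (0.53 to 0.67) and the lipid median by 0.70 (0.61 to 0.77). Of the 14 pump genes, 9 lay above the highest glycosidase, Gla. The side of 0 on which a class lies does depend on the scaling. When both arrays were set level on the lymphocyte (B and T cell) markers, the pump median was 0.68, the glycosidase median 0.06 and the cathepsin median 0.10. The lipid median was then -0.02. Against the median of all genes under the same processing, the pump was higher by 0.31 (0.12 to 0.37) and the glycosidases lower, at -0.31 (-0.39 to -0.27).

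**Figure D3:**
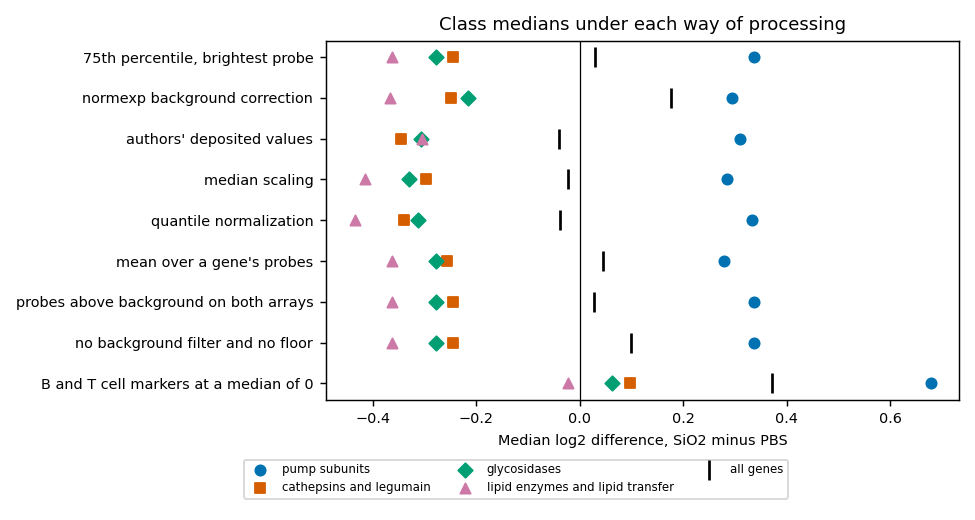
Median log2 difference (SiO2 minus PBS, x axis) of the pump subunits, 3 hydrolase classes and all genes under the reported processing (top row) and each of the 8 alternatives. The pump median lies right of all 3 hydrolase medians in every row, and the last row moves all of them to the right by 0.34. Distances between the classes are unchanged by that shift, by median scaling and by both changes of background filter. The deposited values hold 5 of the 12 cathepsin genes, and neither Ctse nor Ctsf.

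Promoter sequence was examined because the members' products work in 1 organelle and many are known targets of the E-box factors above. RefSeq promoters (GRCm38.p6, 250 bases before to 50 after each annotated start) were matched for 43 of the 52 genes. The 6-base palindrome CACGTG was in a promoter of 16 of the 43 (37.2%), against 8.09% of 27025 genes with a promoter in the table. The longer palindrome TCACGTGA, which contains the first and is counted within it, was in 7 of 43 (16.3%), against 1.12%. Both read the same on either strand. By class, TCACGTGA was in 3 of 10 pump genes, 2 of 9 cathepsin genes, 1 of 8 glycosidases, 1 of 6 membrane protein genes and 0 of 5 lipid genes. CACGTG was in 4, 5, 4, 2 and 0 of these, and in 1 of 2 sulfatase genes. The 7 genes with TCACGTGA had a median difference of 0.11, from -0.23 to 0.77, and the 35 measured without it -0.25, from -1.13 to 2.35. As the 7 hold 3 pump genes and 0 lipid genes, a difference by palindrome cannot be told apart here from one by class. A match is only a string of letters and not evidence of binding.

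The windows below show where the palindromes stand in the genes that carry TCACGTGA, and in Atp6v0b, Ctsf and Lamp1, which carry CACGTG alone. These 3 were picked after their values were seen and are those of the 9 such genes that lie above 0. The 6 not shown lie below 0, namely Glb1 (-0.04), Ctsl (-0.19), Naglu (-0.35), Gaa (-0.37), Lgmn (-0.42) and Arsa (-0.48). They are written 5′ to 3′ on the gene's strand, with the palindromes in capitals. Those upstream of the start site are 100 bases long and those that overlap it 30. Atp6v1a lies on the minus strand at chr16:44139310-44139409, Atp6v0b on minus at chr4:117887330-117887429, and Ctsd on minus at chr7:142387868-142387967. Ctsf lies on plus at chr19:4855045-4855144, Gla on minus at chrX:134601146-134601245, and Lamp1 on plus at chr8:13159061-13159160. Mcoln1 lies on plus at chr8:3500419-3500518. The short windows are Atp6v0d1 on minus at chr8:105566050-105566079, Atp6v0e on plus at chr17:26676387-26676416, and Ctsa on plus at chr2:164833756-164833785.
Atp6v1a: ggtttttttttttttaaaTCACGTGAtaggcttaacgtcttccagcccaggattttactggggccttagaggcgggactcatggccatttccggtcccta
Atp6v0b: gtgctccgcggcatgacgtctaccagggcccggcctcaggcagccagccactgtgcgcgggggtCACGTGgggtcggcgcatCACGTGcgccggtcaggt
Ctsd: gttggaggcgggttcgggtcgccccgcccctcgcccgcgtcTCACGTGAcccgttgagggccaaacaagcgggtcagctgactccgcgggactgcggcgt
Ctsf: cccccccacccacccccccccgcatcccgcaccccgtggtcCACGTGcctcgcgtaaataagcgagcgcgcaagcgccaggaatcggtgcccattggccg
Gla: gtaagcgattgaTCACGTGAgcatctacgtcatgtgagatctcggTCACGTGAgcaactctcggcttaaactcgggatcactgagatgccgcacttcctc
Lamp1: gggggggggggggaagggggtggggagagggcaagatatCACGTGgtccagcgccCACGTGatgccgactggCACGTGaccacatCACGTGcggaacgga
Mcoln1: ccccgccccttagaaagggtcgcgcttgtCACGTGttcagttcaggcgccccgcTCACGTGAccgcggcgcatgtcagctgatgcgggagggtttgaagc
Atp6v0d1: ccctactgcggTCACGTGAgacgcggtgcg
Atp6v0e: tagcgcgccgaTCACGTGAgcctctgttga
Ctsa: actgTCACGTGAtgcagatgcTCACGTGAc

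Carrying a palindrome went with values on both sides of 0. Lamp1 carries 4 copies of CACGTG within 61 bases of its start and differed by 0.11 on the log2 scale. Gla carries 2 copies of TCACGTGA and also differed by 0.11, while Ctsa, with 2 copies at its start, was at -0.23. With 1 copy of TCACGTGA each, Atp6v0d1 was at 0.77, Atp6v1a at 0.62, Ctsd at 0.52, Atp6v0e at 0.09 and Mcoln1 at 0.07. Ctsf, at 2.35, has CACGTG once, 79 bases before its start.

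The pump has further isoforms and accessory genes outside the set, and some isoforms differed from their sister subunits while others did not. Over the 11 measured, the median difference was 0.08, with 6 above 0 and 5 below. This median was -0.11 under quantile normalization and 0.43 under normexp. The accessory gene Atp6ap2 was at -0.06, and the very dim Atp6v0a4 at -0.77 (-0.01 under normexp). Atp6v0d2, the form of subunit d found in osteoclasts and some macrophages, had 62.6% in SiO2 against 1.26% in PBS, where it was not well above background. By this probe and the scanner's background subtraction it was 49.5-fold higher, or 5.63 in log2. The ratio rests on that uncertain PBS signal and is not a lower limit. A second Atp6v0d2 probe gave 4.72, and with normexp background correction the value was 2.72. Of the large membrane subunit's isoforms, Atp6v0a1 was higher as above, while Atp6v0a2 had 67.8% in SiO2 against 124% in PBS (-0.88). Tcirg1, the isoform of osteoclast and lysosomal pumps, was at 152% in SiO2 and 181% in PBS (-0.25). Atp6v1e2 (0.53), Atp6v1g2 (0.15) and Atp6v1g3 (0.08), all very dim, were nearer to their sisters Atp6v1e1 (0.73) and Atp6v1g1 (0.08). This depended on the processing. Under normexp Atp6v1g2 was at 0.43 and Atp6v1g3 at 0.44, against 0.04 for Atp6v1g1. Atp6v1e2 was at 0.46 there, against 0.65 for Atp6v1e1. The remaining 2-fold differences among the 11 other pump genes measured were in very dim probes. Atp6ap1l was at least 2.20-fold higher and Atp6v0e2 2.68-fold lower, and both were within 2-fold under normexp, at 0.67 and -0.12.

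Other lysosomal genes were listed by pathway, with earlier results of these data known. Of 83 listed, 81 were measured, 7 were at least 2-fold higher (8.64%, against 6.62% of all genes) and 3 at least 2-fold lower (3.70%, against 3.69%), with a median of -0.15. These shares are near the background. Beside Atp6v0d2 and Atp6ap1l, the higher ones were the protease Ctsk (2.21-fold), the granule protease Ctsg (2.13-fold), the cystatin-type inhibitor Stfa3 (3.02-fold), the membrane glycoprotein Gpnmb (38.5-fold, or 5.27 in log2, and 3.88 under normexp) and the sialic acid exporter Slc17a5. The 2.20-fold value of Slc17a5 comes from the brighter of its probes, and the dimmer one gave -0.03 in log2. Beside Atp6v0e2, the lower ones were Naaa, an acid amidase of fatty acid ethanolamides, at 3.23-fold, and Cst3, the secreted cathepsin inhibitor cystatin C, at 2.13-fold. Cst3 had 949% in SiO2 against 2021% in PBS. The 25 other hydrolases and activators had a median of -0.23, with 17 of them below 0. Acp5, the tartrate-resistant phosphatase, was at 0.56. The list of related transcription factors had a median of -0.20 over 5 genes, from -0.44 to 0.64, with 3 below 0. Of the factors related to Tfeb, Tfe3 was at -0.36 by its brighter probe and 0.06 by the other, and Tfec at -0.20. Usf1, which binds the same kind of site, was at 0.00, and Zkscan3, a repressor of autophagy and lysosomal genes, at 0.64.

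Cell type markers differed between the pools as well, and their part in the differences was not tested. In pooled tissue, fewer cells of a type and less RNA per cell cannot be told apart. Macrophage markers had a median of -0.60 (-2.02 to 0.59), with 13 of 15 below 0, among them Tyrobp (-0.60) and Sirpa (-0.57). Red pulp macrophage markers had a median of -0.50 and 11 of 11 below 0, such as Vcam1 (-0.50) and the very dim Cd163 (-0.37, and 0.23 under normexp). With the arrays level on lymphocyte markers, 8 of the 11 were below 0. The list also holds Marco (-0.49), which in mouse spleen marks marginal zone macrophages. The glycosidase median lay 0.32 above that of the macrophage markers (0.09 to 0.36 over the alternatives), and the pump median 0.94 above it (0.71 to 0.96). Over 12 genes of B cells the median was -0.54, and over 14 of T cells -0.25.

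Markers of erythroid cells were higher in 14 of 14 genes, with a median of 1.76, and those of neutrophils in 14 of 14, with a median of 2.02. The extraction kit lysed red and white cells differentially, per the labels. Lipid-laden and osteoclast-like phagocyte genes had a median of 1.14, with 15 of 15 above 0. Of these, 13 were above background on both arrays. Under normexp and under median scaling 14 of the 15 lay above 0, and in the deposited values 12 of 13. That list holds Atp6v0d2, Gpnmb, Ctsk and Acp5, which are also among the other lysosomal genes given above. Fibroblast markers had a median of 0.78 over 9 genes and the 5 hepatocyte markers measured 0.26. For the 4 hepatocyte markers above background on both arrays it was -0.06. All markers of red pulp macrophages, B cells and T cells were above background on both arrays. So were 15897 of the 16774 genes measured, and all neutrophil, erythroid and fibroblast markers. Being above background therefore does not check the labelled tissue.

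**Figure D4:**
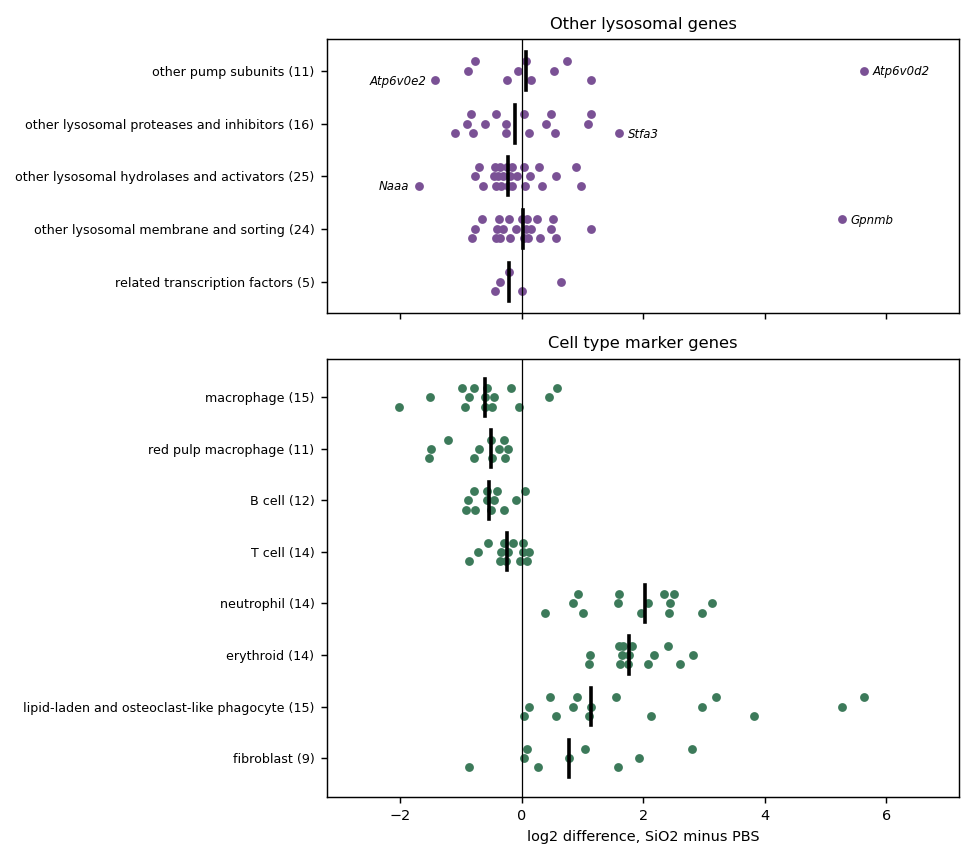
Log2 difference (SiO2 minus PBS, x axis) of lysosomal genes outside the set (top) and of cell type markers (bottom), with the number measured in brackets. Points are genes and black bars are list medians. Atp6v0d2 and Gpnmb stand apart at 5.63 and 5.27 in the top panel, while macrophage medians lie left of 0 and erythroid and neutrophil medians right of it.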

How the data were processed

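Per the labels' protocols, RNA came from a blood kit with differential lysis, globin transcripts were depleted, and the cRNA carried Cy3. The deposited scanner files give each spot's intensity on a linear scale, background-subtracted by Agilent Feature Extraction 11.0.1.1, per the file headers; the submitters' processing notes name version 9.1. For 26049 probes the authors also deposited log2 values in the series matrix, with a median of 5.68 in each column. Their slope on the scanner values was 1.01 for SiO2 and 0.995 for PBS. The sources used here do not say how they were centred.

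Each array had 43020 spots that were not controls, and 74.9% of them (SiO2) and 75.5% (PBS) were well above background. Outlier flags removed 148 spots (SiO2) and 145 (PBS), and none was saturated. Intensities were taken as log2 and scaled to the array's 75th percentile (469 in SiO2, 670 in PBS). Of 39398 probes, 27217 matched 1 symbol by accession in the RefSeq table of GRCm38.p6. A gene was given by its brightest probe above background on at least 1 array, and a dim value was raised to the lowest signal above background. All 51 members measured were above background on both arrays. Normexp (offset 50) and quantile normalization used limma 3.58.1 in R 4.3.3. The averaging of a probe's spots, the scaling and the choice of the brightest probe were tested on simulated data. The raising of dim values and the alternative processings were not.

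All members could be named, as could genes of the other lysosomal lists that differed at least 2-fold, sister subunits and the 3 markers nearest a macrophage list's median. Elane, Prtn3, the granzymes, Usf1, Zkscan3 and the dim pump isoforms were added after their values were seen. Some genes that this rule names are not reported here. The members and lists were chosen with earlier results of these data known.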

Additional observations from a re-analysis of the deposited data

How the results depend on the processing

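Each value was recomputed under 8 alternatives. No paired analysis was possible because each group is 1 array. Keeping only probes above background on both arrays, or using no filter and no floor, left the class medians and counts as reported. Median scaling and quantile normalization each gave 3 members at least 2-fold lower in place of 2, the median over all members being -0.15 under quantile normalization. There the cathepsin median was -0.34 and the lipid median -0.44. Under normexp, run on the median spot signal because the files hold no mean signal, the glycosidase median was -0.22, and Ctsf was at 1.80. Averaging the probes of a gene, the pump median was 0.28. The deposited values cover 37 members, of which 0 were at least 2-fold higher, since Ctse and Ctsf are not among them. There the cathepsin median was -0.35 over 5 genes and the lipid median -0.30. With B and T cell markers at a median of 0, every difference moved up by 0.34. The medians were then 0.27 for all members, 0.68 for the pump, 0.10 for the cathepsins, 0.062 for the glycosidases and -0.023 for the lipid class, with 6 members at least 2-fold higher and 0 lower. The median of all genes, 0.03 as reported, was then 0.37, and 0.18 under normexp. The V1 median, 0.16 as reported, was 0.11 under median scaling and 0.12 under quantile normalization. It was 0.003 over 7 genes in the deposited values, and 0.50 with the lymphocyte level. The count of pump genes above 0 was 13 of 14 as reported, 12 under normexp, 11 under median scaling and under quantile normalization, and 9 of 12 in the deposited values. At least 1.5-fold higher were 5 as reported, and 4 under normexp, median scaling, probe averaging and in the deposited values. With the lymphocyte level it was 7, where 34.4% of all genes passed. Over the alternatives that give a value, Ctsf ranged from 1.80 to 2.69, Ctse from 1.21 to 1.65, Ctsc from -1.15 to -0.75, Psap from -1.19 to -0.79 and Ppt1 from -1.04 to -0.65, with no change of sign. Mitf and Tfeb are limited by dim probes. Mitf was at -0.42 under normexp, -0.91 with probes averaged and -1.24 in the deposited values, against -0.70. Tfeb was at -0.23 under normexp, against -0.45. The averaged Mitf value is the mean of its 2 probes, at -0.70 and -1.12. Its deposited value lies nearer to that of the second probe, so it need not measure the same probe as the reported -0.70. The cause of the other shifts was not tested.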
